A study of Oryza sativa with 2 samples.

Results

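The SVP, SOC1 and AGL17 type genes described here are 6 MADS-box transcription factor genes of rice, taken from the table by their locus identifiers. They are 6 of the 57446 genes in the table. MADS22 (LOC_Os02g52340), MADS47 (LOC_Os03g08754) and MADS55 (LOC_Os06g11330) are of the SVP type, MADS50 (LOC_Os03g03070) and MADS56 (LOC_Os10g39130) of the SOC1 type, and MADS57 (LOC_Os02g49840) of the AGL17 type. Messenger RNA was sequenced from young panicles under 2 cm, once from wild-type plants of the line XD1B and once from the mutant lf2, whose altered gene is LATERAL FLORET 2. By the series title LF2 is a chromatin remodelling factor of SNF2 type with a role in the spikelet's axillary meristem, where the spikelet is the flower-bearing unit of a grass. The labels do not give the lf2 allele, its genetic background or how many panicles were pooled. The locus of LF2 is not given either, so its own level is not reported here.

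SVP and SOC1 type proteins act in the network that moves a plant from leaf production to flowering, and their binding to DNA as dimers with other MADS proteins is what selects their targets. In rice the SVP type genes are also known as brakes on the response to brassinosteroid, a growth hormone, and have been tied to the identity of the spikelet meristem. MADS50 is known to promote flowering under long days and MADS56 to delay it, and their proteins bind each other. MADS57 is known for the outgrowth of tillers, where it represses the strigolactone receptor gene D14 and is held back by the branching factor TB1, and its transcript is a target of the microRNA miR444.

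The values are FPKM, fragments per kilobase of gene relative to all fragments of that library, so levels of different genes can be set side by side within a library. Both libraries were deep, at 29111345 fragments for XD1B and 27373727 for lf2. With 1 library per genotype there is no replicate check and no p-value. The intervals given with levels and ratios are 95% intervals from fragment numbers and cover counting error only. The libraries also differ as wholes. The median log2((lf2 FPKM + 1)/(XD1B FPKM + 1)) was -0.31 over the 22150 measured genes, those that reached FPKM 1 in XD1B or in lf2. Setting to 1 the median ratio of well expressed genes (5 FPKM or more in XD1B and in lf2) multiplies the lf2 values by 1.32. A gene is called higher or lower here where that log2 value is at least 1 or at most -1, a rule of size.

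MADS57 was the 1 gene of the 6 called higher in lf2, and 0 were called lower. Of the 22150 measured genes, 15.3% were called higher and 8.23% called lower by the same 2-fold rule. MADS47 and MADS50 were also above the wild type, MADS56 slightly so, and MADS22 and MADS55 were close to it. The ratio of FPKM had a counting interval wholly above 1 for 4 of the 6 genes, where 28.1% of all genes had one. It was wholly below 1 for 0 of the 6, where 54.9% of all genes were. Fragments are lower bounds, so intervals that include 1, as for MADS22 and MADS55, may be too wide. With lf2 rescaled by 1.32, all 6 genes had an interval above 1, as did 42.03% of all measured genes. All 6 lay above the median of all genes, between percentile 59.3 and percentile 88.5 of the log2 values, and their own median was 0.45. Because bulk panicles were sequenced, fewer cells of a type and less RNA per cell cannot be told apart.

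**Figure D1:**
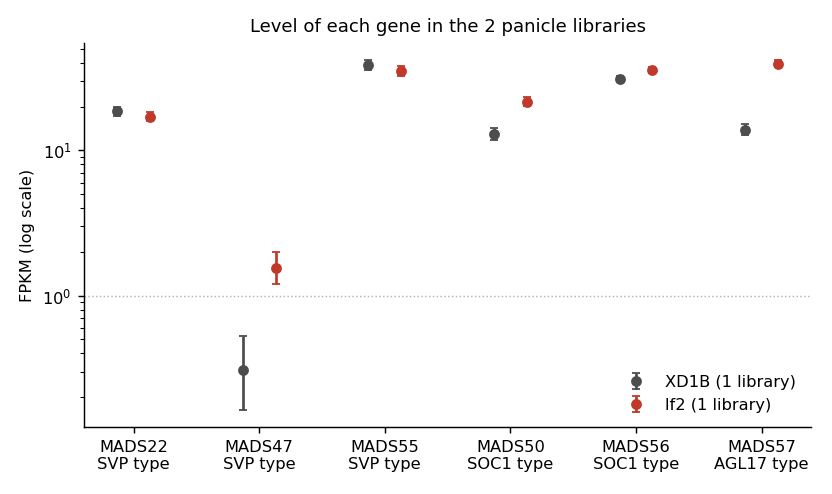
FPKM on a log axis for each of the 6 genes in the XD1B library (grey) and the lf2 library (red), with bars for the 95% counting interval of the level and a dotted line at FPKM 1. MADS57 goes from 13.8 to 39.4, MADS47 crosses FPKM 1, and MADS22 and MADS55 hold nearly the same place in both libraries.

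Among the SVP type genes, MADS55 had the highest level. It stood at 38.7 FPKM in XD1B and 35.3 in lf2, from at least 676 and 579 fragments. MADS22 stood at 18.6 FPKM in XD1B and 17.02 in lf2. These genes, which encode closely related proteins, thus differed in level about to the same degree in both libraries, with MADS22 at 0.480 of the level of MADS55 in XD1B and at 0.483 in lf2. The ratio of lf2 to XD1B was 0.911 (0.814 to 1.02) for MADS55 and 0.915 (0.828 to 1.01) for MADS22, and both intervals include 1. The fragments of MADS55 were recovered at a length of 600 bases, against 1263 to 1649 for the other members. As these fragments are lower bounds, the interval of MADS55 may be too wide, and whether it includes 1 is not settled. The log2 value was -0.13 for MADS55 and -0.12 for MADS22. Both change sign when lf2 is rescaled to a median ratio of 1, to 0.26 for each, and their rescaled ratios of 1.20 (1.07 to 1.34) for MADS55 and 1.20 (1.09 to 1.33) for MADS22 have intervals above 1. Whether MADS55 and MADS22 stand below or above their wild-type level therefore depends on the scale.

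MADS47, the third SVP type gene and a brake on brassinosteroid signalling, was barely present. It stood at 0.306 FPKM in XD1B, from 13 fragments, and at 1.55 in lf2, from 62 fragments. Its ratio of 5.07 (2.76 to 10.1) is the highest of the 6 genes, but its log2 value of 0.97 with the pseudocount of 1 fell short of the 2-fold rule. The pseudocount weighs heavily on so low a gene, and with 0.1 the log2 value was 2.03. The gene entered the count of measured genes by its lf2 value alone. At 1.55 FPKM it was still 0.0441 of the level of MADS55 in the same library. An lncRNA gene of the RefSeq table lies inside MADS47, and whether its reads entered the count was not tested.

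The SOC1 type genes were both higher in the lf2 library, to different degrees. MADS50, the promoter of flowering, stood at 12.9 FPKM in XD1B and 21.6 in lf2, from 481 and 755 fragments. Its ratio was 1.67 (1.49 to 1.88) and its log2 value 0.70, below the 2-fold rule. On the scale set to a median ratio of 1 its log2 value was 1.08, which passes it. MADS56, the gene that delays flowering, stood at 31.0 FPKM in XD1B and 35.6 in lf2, from 1487 and 1607 fragments. Its ratio was 1.15 (1.07 to 1.23), the smallest departure from 1 among the 4 genes whose interval excludes it. MADS50 thus went from 0.417 of the level of MADS56 in XD1B to 0.606 of it in lf2, and this ratio does not depend on how the libraries are scaled.

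The locus LOC_Os03g03100, which comes next but one after MADS50 in the order of locus numbers, had nearly the same levels. It was chosen after its values had been seen. It stood at 12.6 FPKM in XD1B and 20.1 in lf2, a ratio of 1.60 (1.37 to 1.86). Whether this locus and MADS50 are parts of 1 gene could not be settled from the sources used here, so its values may not be separate from those of MADS50. The locus between them was at 0.520 and 0.443 FPKM. An lncRNA gene lies inside the MADS50 gene of RefSeq, whose coordinates are of another build and are not used here.

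MADS57, the AGL17 type gene, stood at 13.8 FPKM in XD1B and 39.4 in lf2, from 509 and 1363 fragments. Its ratio of 2.85 (2.57 to 3.16) and log2 value of 1.45 placed it at percentile 88.5 of all measured genes. It passed the 2-fold rule under each scaling, pseudocount and filter tried, with log2 values of 1.24 to 1.83. In the order of FPKM over the whole table it went from rank 9702 in XD1B to rank 3407 in lf2. In the RefSeq table an lncRNA gene overlaps MADS57. The precursors of miR444 are known to be transcribed from the strand opposite to AGL17 type genes, and the sources used here do not say whether counting was by strand, so reads of the gene and of an antisense partner cannot be told apart.

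**Figure D2:**
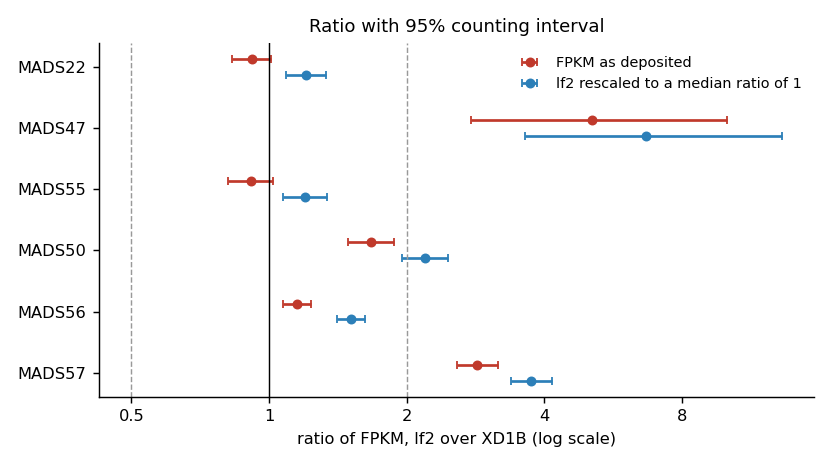
Ratio of FPKM, lf2 over XD1B, on a log axis, with 95% counting intervals, for the deposited values (red) and with lf2 multiplied by 1.32 (blue); the solid line marks 1 and the dashed lines 0.5 and 2. MADS57 and MADS47 lie beyond 2 on both scales, MADS50 passes it after rescaling, and MADS22 and MADS55 move from below 1 to above it.

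D14, the strigolactone receptor gene that MADS57 is known to repress, was higher in the lf2 library as well. It stood at 51.3 FPKM in XD1B and 156 in lf2, a ratio of 3.04 (2.91 to 3.17) and a log2 value of 1.58. MADS57 and its known target were thus both at least 2-fold higher in lf2. Of the other AGL17 type genes, MADS27, known for root responses to nitrate, was at 3.51 FPKM in XD1B and 8.79 in lf2, a ratio of 2.50 (2.00 to 3.15). MADS23 was at 5.24 FPKM in XD1B and 5.20 in lf2, a ratio of 0.993 (0.748 to 1.32). Of the 3 AGL17 type genes with FPKM of at least 1, MADS57 included, MADS57 and MADS27 were called higher and the interval of MADS23 includes 1. These 3 genes are too few to set beside the 15.3% of all measured genes called higher.

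The order of the 6 levels differed between the libraries. In XD1B it ran MADS55, MADS56, MADS22, MADS57, MADS50 and MADS47. The intervals of neighbours overlapped for MADS57 (12.7 to 15.1 FPKM) and MADS50 (11.8 to 14.1), so this pair is not ordered by the counts. In lf2 the order was MADS57, MADS56, MADS55, MADS50, MADS22 and MADS47. Here the intervals of MADS57 (37.4 to 41.6) and MADS56 (33.9 to 37.4) overlapped only at their ends. Both overlapped that of MADS55 (32.4 to 38.2), which may be too wide. Overlap alone does not make these levels equal. In order of level, MADS57 went from a place beside MADS50 to one beside MADS56 and MADS55 at the top, and MADS50 passed MADS22.

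As parts of their summed level, the SVP type genes took a smaller part in lf2 and MADS57 a larger one. The 6 genes summed to 115 FPKM in XD1B and 150 in lf2, a ratio of 1.30. The SVP type genes held 49.9% of the sum in XD1B and 35.8% in lf2. MADS57 alone held 12.0% and 26.2%. The SOC1 type genes held 38.1% and 38.0%, with MADS50 up from 11.2% to 14.3% and MADS56 down from 26.9% to 23.7%. Counted by fragments, which are not per length, MADS55 takes a smaller part, 16.8% and 11.4%, and MADS56 a larger one, 37.05% and 31.5%. Fragments are lower bounds, and those of MADS55 were recovered at a length of only 600 bases. Its part by fragments may therefore be too small.

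**Figure D3:**
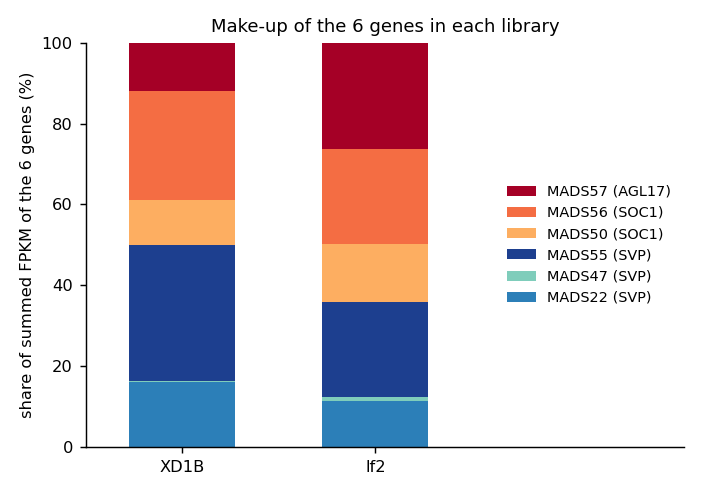
Share of each gene in the summed FPKM of the 6 genes, in percent, as stacked bars for the XD1B and the lf2 library, with SVP type genes in blue and green, SOC1 type in orange and MADS57 in dark red. The SVP part shrinks from 49.9% to 35.8% and the MADS57 part grows from 12.0% to 26.2%, while the SOC1 part stays at 38%.

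Differences between the genes do not depend on the scaling of the libraries, because both genes of a pair share it. Of the 15 pairs, 13 had a counting interval of the ratio of ratios that excludes 1. Of the SVP type genes, MADS22 and MADS55 were 1 of the 2 pairs whose interval includes it, at 1.01 (0.864 to 1.17). MADS57 over MADS47 was the other, at 0.561 (0.281 to 1.04), where the 13 fragments of MADS47 set the width. The ratio of MADS57 was 3.11 (2.69 to 3.59) times that of MADS22, 2.48 (2.19 to 2.81) times that of MADS56 and 1.71 (1.46 to 1.99) times that of MADS50. The SOC1 type pair differed too, with the ratio of MADS50 at 1.45 (1.27 to 1.67) times that of MADS56. These intervals compare 2 libraries and not the genotypes.

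**Figure D4:**
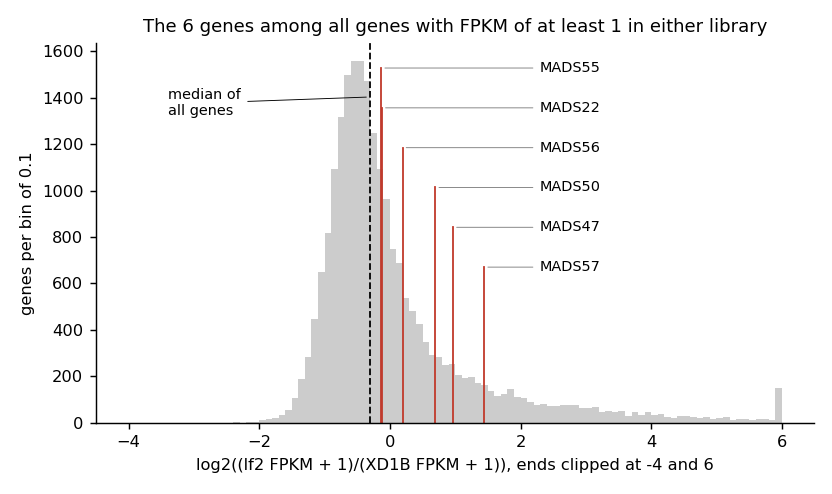
Number of genes per bin of 0.1 in log2((lf2 FPKM + 1)/(XD1B FPKM + 1)) over the 22150 measured genes, values beyond -4 and 6 placed in the end bins, with red lines for the 6 genes and a dashed line for the median of -0.31. All 6 genes lie to the right of the median, and MADS57 lies beyond 1.

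Among the MADS-box genes of the panicle, MADS57, MADS47, MADS50 and MADS56 had high log2 values, and MADS22 and MADS55 lay in the middle. Of 23 other MADS genes listed by type, 20 reached FPKM 1 in either library. Of these, 2 were called higher and 7 lower, with a median of -0.74 beside 0.45 for the 6 genes and -0.31 for all genes. Of all measured genes, 15.3% were called higher and 8.23% lower. With lf2 rescaled to a median ratio of 1, these shares were 19.6% and 1.73%. The calls of the other MADS genes on that scale are not given here. Of the 20, 1 had a higher log2 value than MADS57, 2 each than MADS47 and MADS50, 3 than MADS56 and 7 each than MADS22 and MADS55. The SEPALLATA and AGL6 type genes, which act with other MADS proteins in floral organs, had 4 of 7 called lower and 0 higher, with a median of -1.25. MADS7 was at 72.6 and 21.6 FPKM, MADS6 at 83.3 and 27.3, and MADS1, which makes lemma and palea, at 190 and 73.2. The genes of B, C and D class, for lodicules, stamens, carpels and ovules, had 3 of 6 measured members called lower, which were MADS58, MADS4 and MADS13, and 0 called higher. The AP1/FUL type genes, of the shift to inflorescence and floral meristems, had 1 of 4 called higher, MADS20 at 0.607 and 16.5 FPKM, and 0 lower. MADS20 entered the count of measured genes by its lf2 value alone, the library where it was high. MADS15 was at 225 and 149 and MADS18 at 86.2 and 67.6. With 1 library per genotype the difference between these types was not tested.

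**Figure D5:**
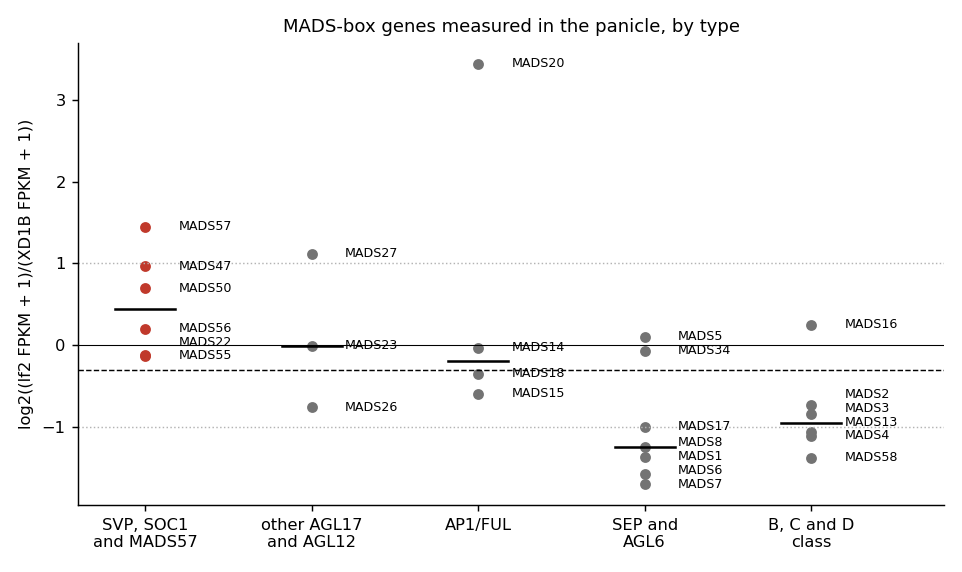
log2((lf2 FPKM + 1)/(XD1B FPKM + 1)) of each measured MADS-box gene, in columns by type, with short bars for the median of a column, a dashed line for the median of all genes at -0.31 and dotted lines at -1 and 1. The 6 genes in red lie between -0.13 and 1.45, and most SEPALLATA, AGL6 and B, C and D class genes lie near or under -1.

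In level the 6 genes lay among the other MADS genes without reaching the highest of them, MADS15 at 225 FPKM and MADS1 at 190 in XD1B. Of the 20 measured, 11 stood above MADS55 in XD1B and 7 in lf2, and 13 stood above MADS57 in XD1B and 7 in lf2. MADS47 was under all 20 in XD1B and under 18 in lf2. Over both libraries, MADS2, a B class gene at 57.1 and 34.1 FPKM, was nearest in level to MADS55 and to MADS56, at distances of 0.55 and 0.86 in log2(FPKM + 1). MADS17, an AGL6 type gene at 25.7 and 12.4, was nearest to MADS22 and MADS50, at 0.62 and 1.20. MADS57 had no close neighbour, the nearest of the 23 genes being MADS16 at 48.1 and 57.2 FPKM, at a distance of 1.80. MADS33, an AGL12 type gene under FPKM 1 in both libraries, was nearest to MADS47 at 0.92. Likeness over 2 libraries describes levels and no more.

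On the deposited scale, no measured gene of the photoperiod and florigen list, which acts upstream of flowering, passed the 2-fold rule. Of its 19 genes, 12 reached FPKM 1, and 0 were called higher and 0 lower, with a median of 0.01. Of all measured genes, 15.3% were called higher and 8.23% lower. Rescaling by 1.32 raises every lf2 value above 0, and the calls of this list on that scale are not given here. The florigen gene HD3A, whose protein travels from the leaf, was listed at 0 in both libraries. EHD4, an activator of the florigen pathway, stood at 19.6 FPKM in XD1B and 36.2 in lf2, a log2 value of 0.85. LFL1, a repressor of flowering, went the other way, at 2.98 and 1.17 and a log2 value of -0.87. EHD3, another activator, was at 14.3 and 8.77 and a log2 value of -0.65. The 4 RCN genes, the TFL1 family that SVP and SOC1 type proteins are known to repress in rice, could not be matched to the RefSeq table by both name and place. Of 3 with FPKM of at least 1, 1 was called higher and 0 lower, too few to set beside the 15.3% of all genes called higher. By log2 value 2 of the 3 lay above 0 and 1 below. The one below 0 had the highest level of them, at 11.6 FPKM in XD1B and 6.48 in lf2, a ratio of 0.561 (0.461 to 0.682). The one called higher was at 1.49 FPKM in XD1B and 4.77 in lf2, a ratio of 3.21 (2.41 to 4.32).

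Brassinosteroid genes, downstream of the known role of the SVP type, went both ways. Of 13 listed, 11 reached FPKM 1, of which 2 were called higher and 1 lower. Of all measured genes, 15.3% were called higher and 8.23% lower. The median of the list, -0.51, lay below that of all genes. D2, a cytochrome P450 gene of brassinosteroid synthesis, stood at 5.65 FPKM in XD1B and 22.02 in lf2, a ratio of 3.90 (3.17 to 4.83). BZR1, the transcription factor of the pathway, was at 145 and 81.1, a log2 value of -0.84. IBH1, a bHLH gene that restrains growth, was at 0.104 and 1.05, from 10 and 95 fragments, a log2 value of 0.89.

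Marker genes of tissue and state were also compared between the 2 libraries, where the median log2 value of all measured genes was -0.31. Of 6 panicle meristem and floret markers, 5 reached FPKM 1, and 0 of the 6 were at 0. Their summed level was 539 FPKM in XD1B and 305 in lf2, and OSH1, which marks meristem cells, was at 86.6 and 60.7. OSH15, another meristem gene, was at 134 and 76.3, DL of the carpel at 40.3 and 11.4, MADS34 at 87.4 and 83.4 and FZP at 0.367 and 0.219 FPKM. The 4 leaf markers summed to 108 FPKM in XD1B and 133 in lf2, with PORA, of chlorophyll synthesis, called higher at 50.4 and 109 and 2 called lower, among them RCA, the Rubisco activase gene, at 7.80 and 2.63. All 6 heat shock and jasmonate markers were called higher in lf2, with log2 values of 2.23 to 7.66. Their summed level was 37.9 FPKM in XD1B and 796 in lf2. TIFY11A and TIFY11C, at 0.0659 and 0.0777 FPKM in XD1B, entered the count of measured genes by their lf2 values alone. This list too was chosen with earlier results of these data known. Of all measured genes, 15.3% were called higher and 8.23% lower. The part of tissue make-up or stress in the differences of MADS57, MADS47 and MADS50 was not tested.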

How the data were processed

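The authors deposited FPKM per gene for 1 library of each genotype. The unit is named per the file name, and for the aligner, counter, build, annotation, strand setting and filters the sources used here give nothing. FPKM was used as deposited. Library totals and fragments per gene were recovered from the steps between low values, each being whole fragments over a whole length and a library total. Within 0.0002 fragments plus 3e-07 of the number, this held for 100% of 32350 genes above 0. Fragments are lower bounds, since a factor common to both libraries and the length cannot be seen, so intervals may be too wide. Ratios have exact Clopper-Pearson intervals, levels exact Poisson intervals and ratios of ratios exact conditional intervals, at 95%.

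The log2 value uses a pseudocount of 1, which understates differences of low genes, over genes that reach FPKM 1 in XD1B or lf2. All 6 members passed that filter. Members and lists were chosen with earlier results of these data known. Named genes are the 6 members, up to 3 genes per list with the largest absolute log2 value, D14, HD3A, the tissue markers and, for each member, the other MADS gene nearest in log2(FPKM + 1) over both libraries. One further gene of that rule is not reported here. A gene outside the 6 is named only where the RefSeq table (assembly ASM3414082v1) gives its symbol on the same chromosome and within 6% of the place expected from its locus number. Of 81 symbols, 64 passed, the 6 members included. The software was scipy 1.17.1 with numpy 2.4.6 and pandas 2.3.3 under Python 3.11.15, with figures by matplotlib 3.10.9, and the procedure was tested on simulated data.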

Additional observations from a re-analysis of the deposited data

How the results depend on the processing

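No paired analysis was possible because each genotype has 1 library, and no replicate could be left out. With a pseudocount of 0.1 the log2 value of MADS47 was 2.03, 2 members were called higher, and of all genes 17.2% higher and 2978 lower. With a pseudocount of 5, MADS57 was at 1.24, the median of the members 0.24 and of all genes -0.19, with 2183 genes called higher and 648 lower. Without a filter the median of all genes was 0.00, since genes at 0 in both libraries enter. At FPKM of at least 5, which leaves out MADS47, the median of the members was 0.19. Rescaling to a median ratio of 1 multiplies every lf2 value and gave 0.26 for MADS22, 0.26 for MADS55, 1.08 for MADS50, 0.58 for MADS56 and 1.83 for MADS57, a median of 0.83 for the members and 0.051 for all genes, 3 members and 19.6% of genes called higher and 389 genes lower. A sum of 1000000 gave 2 members and 16.5% of genes called higher. MADS57 was called higher and 0 members lower in all settings. Without a pseudocount, log2 differences with MADS47 moved, to 2.47 over MADS22, 2.48 over MADS55, 1.60 over MADS50 and 2.14 over MADS56, and MADS57 minus MADS47 went from 0.48 to -0.83, an interval that includes 0. Shares by fragments, in XD1B and lf2, were 21.1% and 14.3% for MADS22, 16.8% and 11.4% for MADS55, and 37.05% and 31.5% for MADS56, because lengths differ and fragments are lower bounds. Depth limits MADS47 at 13 fragments.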

Other observations

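The loci next to the 6 genes, 5 on each side in the order of locus numbers, were looked at after the values of the genes had been seen. Of 60 such loci, 36 reached FPKM 1 in either library, of which 7 (19.4%) were called higher in lf2 and 4 (11.1%) lower, beside 15.3% and 8.23% of all genes. Around MADS56, 4 of 7 measured loci were called higher and 0 lower, while MADS56 itself had a ratio of 1.15. Of these loci, LOC_Os10g39090, LOC_Os10g39100 and LOC_Os10g39110 entered the count of measured genes by their lf2 values alone, the library where they were high. LOC_Os10g39140, the next locus after MADS56, stood at 1.41 FPKM in XD1B and 79.2 in lf2, a ratio of 56.3 (44.5 to 72.2). Around MADS57, 2 of 6 measured loci were called higher and 0 lower. LOC_Os02g49860, next but one after MADS57, stood at 0.374 and 47.9 FPKM, from 12 and 1446 fragments. This locus too was measured by its lf2 value alone. Around the 3 SVP type genes 0 of 18 measured loci were called higher and 3 (16.7%) lower. The files give no names for these loci, and no test was made.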
